A study of Mus musculus with 10 samples.

Results

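The macrophages compared here were mouse bone-marrow-derived macrophages (BMDMΦs) kept for 48 h with conditioned medium (CM) of cancer-associated fibroblasts (CAFs) or with interferon-γ (IFNγ). All arrays whose title carries the CM of CAFs were set against the arrays whose title ends in IFNY, which gave 4 and 2 arrays of the 10 in the series, and every probe set was used. The CM came from CAFs of MMTV-PyMT mouse mammary tumors that were either wild-type for Snai1 (WT CAF CM, 2 arrays) or depleted of it (KO CAF CM, 2 arrays) and had been starved of serum for 24 h. IFNγ was given at 100 units/mL (2 arrays), and 2 arrays of not stimulated macrophages in complete medium give the baseline. The remaining 2 arrays hold macrophages given 10 ng/mL IL4 and enter only the estimate of the spread. All macrophages were grown from the marrow of male C57Bl/6J mice, 8 to 12 weeks old, with medium conditioned by L929 cells, a source of macrophage colony-stimulating factor. The titles and the study's methods attach WT and KO to the fibroblasts that made the medium, while the sample descriptions can be read as naming the macrophages. The dilution of the CM on the arrays is not stated, and no array had starvation medium that CAFs had not conditioned, so CAF products and the medium itself cannot be told apart. Whether replicate arrays stem from different mice or cultures is not stated, so a p-value covers no more than the spread of these samples, which may be technical.

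IFNγ binds a receptor that signals through JAK kinases, and its target genes often carry GAS elements. Among these targets is IRF1, which binds ISRE elements, and the response includes the guanylate-binding proteins, antigen presentation and the chemokines that recruit T cells. Inflammatory stimuli that act through Toll-like or IL1 receptors instead activate NF-kB, AP1 and C/EBP factors, with neutrophil chemokines, IL1 and acute phase proteins among their targets. Fibroblasts of tumors secrete cytokines, chemokines, prostaglandins and matrix, and macrophages in contact with them can therefore meet several stimuli at once.

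Gene expression was read on Clariom S arrays, where short probes are grouped into probe sets, as a rule 1 for each gene. The values are log2 signals after robust multi-array averaging (RMA), so 1 unit is a doubling. Of 22206 probe sets, 19572 carry 1 gene symbol (19505 different genes). The medians of the arrays ranged over 5.57 to 5.71, and replicate arrays had correlations of 0.9936 to 0.9952. There is no detection call, so a low signal and an absent transcript cannot be told apart. Macrophage identity genes were high everywhere, with a mean over the 8 measured members of 15.57 to 15.93 on the CAF CM arrays, 15.29 to 15.54 on the IFNγ arrays and 15.54 to 15.56 on the not stimulated ones. In bulk RNA, fewer cells of a type and less RNA per cell cannot be told apart.

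The medium of CAFs and IFNγ left the macrophages in widely different states. With an adjusted p under 0.05 (limma, Benjamini-Hochberg over all probe sets), 3373 probe sets (15.2%) differed between the mean of both CAF CM and IFNγ, of which 1777 were higher and 1596 lower with CAF CM. The same fit gave 5502 probe sets at an unadjusted p under 0.05, and on 31.6% of all probe sets the CAF CM and IFNγ arrays did not overlap. The number of calls rested on having both IFNγ arrays, since it was 2239 without replicate 1 of IFNγ and 2157 without replicate 2. WT CAF CM alone differed from IFNγ on 2579 probe sets (11.6%) and KO CAF CM alone on 3121 (14.1%). Of the 3373, 2034 were called with the same sign in each medium, and 11 had opposite signs in the WT and KO media. Since the 3373 were called on the mean of both media, probe sets whose opposite signs cancel are left out.

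Among the largest differences toward CAF CM were those in Marco, Lcn2 and Il1b, whose signals on the IFNγ arrays lay within or below the range of not stimulated macrophages. Marco, a scavenger receptor for bacteria and particles, had 16.89 and 16.06 in WT CAF CM, 17.45 and 17.24 in KO CAF CM, 6.32 and 6.08 with IFNγ and 6.52 and 6.77 in not stimulated macrophages. The difference from IFNγ was 10.71 (SE 0.22, adjusted p = 9.7e-11), a ratio of 1680. Lcn2 encodes lipocalin 2, which binds bacterial siderophores and so withholds iron, and it read 16.50 and 17.99 in WT CAF CM, 17.20 and 16.80 in KO CAF CM, 7.62 and 7.70 with IFNγ and 7.56 and 7.86 in not stimulated macrophages. Its difference was 9.46 (SE 0.33, adjusted p = 3.7e-09). In both genes every CAF CM array lay above every IFNγ array by far more than the distance between arrays of a condition. Il1b, the precursor of the cytokine IL1β, gave 15.17 and 15.79 in WT CAF CM, 13.22 and 14.47 in KO CAF CM, 5.12 and 5.56 with IFNγ and 7.23 and 6.69 in not stimulated macrophages. It differed by 9.32 (SE 0.34, adjusted p = 4.8e-09), and its signal with IFNγ was below that of not stimulated macrophages on both arrays.

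The other large differences toward CAF CM included secreted proteins, an amino acid transporter and myeloid receptors. U90926 differed by 10.60 (SE 0.83, adjusted p = 2.6e-06) with a wide spread among the WT CAF CM arrays (12.97 and 17.32). Serpinb2, an inhibitor of plasminogen activators, was higher by 9.09 and Mmp9, the gelatinase B, by 8.82. Tarm1, an activating receptor of myeloid cells, was higher by 8.90, and Siglece, an inhibitory receptor for sialic acids, by 8.57. Slc7a11, which exchanges glutamate for cystine and supplies glutathione synthesis, had 14.77 and 15.08 in WT CAF CM, 16.09 and 15.26 in KO CAF CM, 6.97 and 6.08 with IFNγ and 9.01 and 8.80 in not stimulated macrophages. It stood above baseline with CAF CM and below it with IFNγ.

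Toward IFNγ the largest difference was in Cxcl9, which encodes a ligand of CXCR3 on activated T cells. Cxcl9 had 5.54 and 6.89 in WT CAF CM, 7.5 and 6.63 in KO CAF CM, 17.59 and 16.96 with IFNγ and 8.08 and 5.38 in not stimulated macrophages. CAF CM minus IFNγ was -10.64 (SE 0.61, adjusted p = 2e-07), with IFNγ 1590 times higher, and the CAF CM arrays lay within the range of the not stimulated ones. Iigp1, an immunity-related GTPase that acts on the vacuoles of intracellular pathogens, read 5.68 and 5.61 in WT CAF CM, 5.90 and 6.15 in KO CAF CM, 15.57 and 15.50 with IFNγ and 6.46 and 5.58 in not stimulated macrophages. It was lower with CAF CM by 9.70 log2 units than with IFNγ. Gm4841 (-10.14), the protease inhibitor gene Serpina3f (-9.20), the chloride channel family member Clic5 (-9.14), the actin-binding calponin Cnn3 (-9.08), the secreted nuclease Dnase1l3 (-8.70), Calhm6 (-8.45) and Gbp8 (-8.08) followed. Clec9a, a receptor for dead cells best known from cross-presenting dendritic cells, had 4.24 and 3.72 in WT CAF CM, 4.14 and 3.83 in KO CAF CM, 13.45 and 12.99 with IFNγ and 4.41 and 4.20 in not stimulated macrophages. Of the 7 dendritic cell markers 2 were lower with CAF CM than with IFNγ, Clec9a (-9.24) and Xcr1 (-2.30), and the mean signal of the list was 4.70 to 4.95 with CAF CM, 6.49 to 6.58 with IFNγ and 5.0 to 5.07 at baseline. The 5 dendritic cell markers with no call averaged 3.61 to 8.85 with CAF CM and 3.58 to 8.5 with IFNγ, with differences of -0.44 to 0.34. The part of dendritic cells in this result was not tested.

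**Figure D1:**
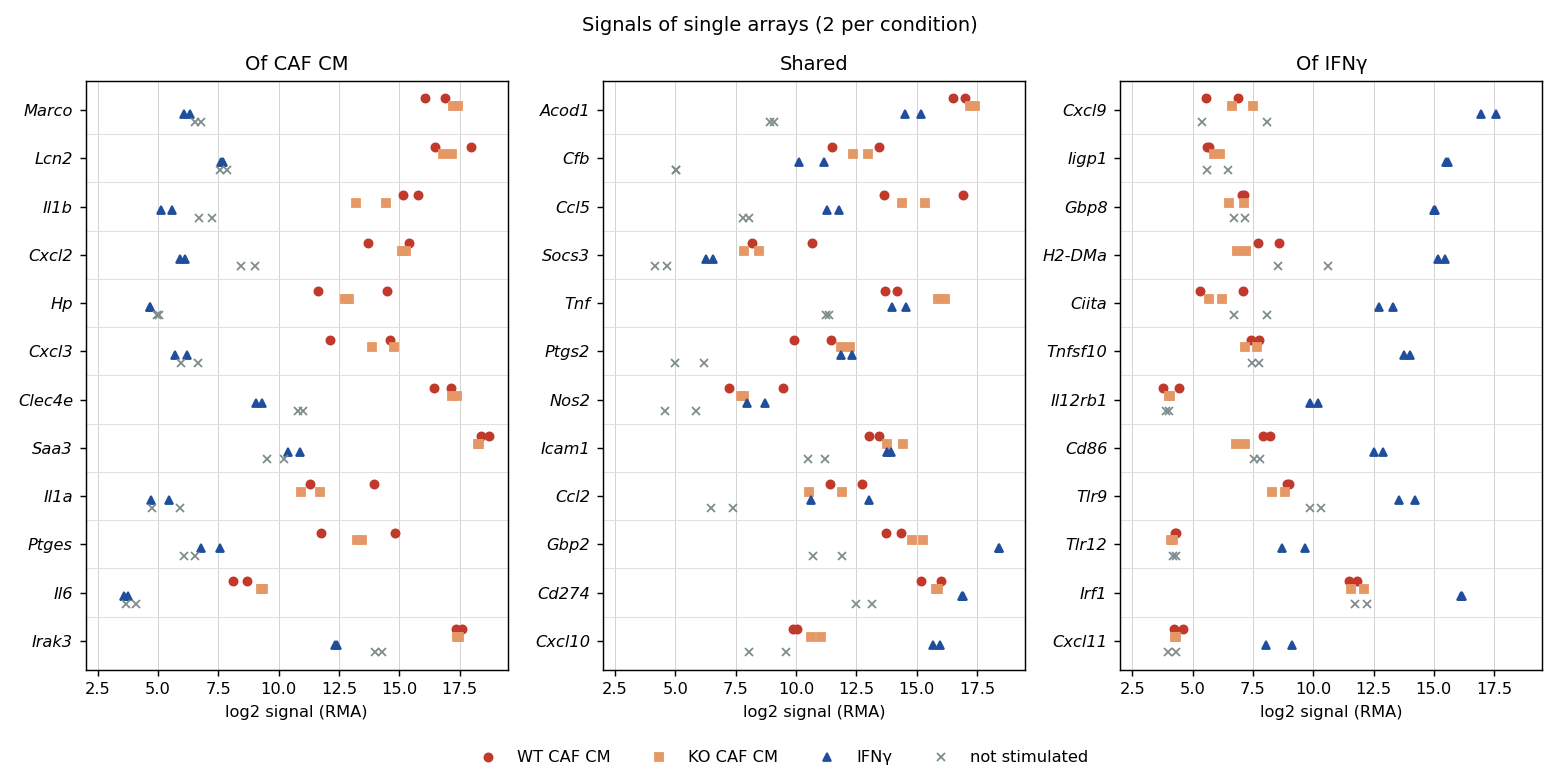
Log2 RMA signal (x axis) of 36 named genes on the WT CAF CM, KO CAF CM, IFNγ and not stimulated arrays, with 1 mark per array and 2 arrays per condition. In the left panel the CAF CM marks stand apart to the right, in the right panel the IFNγ marks do, and in the middle panel both stand to the right of the not stimulated marks.

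To ask which inflammatory genes are shared and which belong to one stimulus, 18 lists of inflammatory genes were used, of which 318 of 346 genes were matched to a named probe set. A gene was called shared when it was higher than in not stimulated macrophages both with the mean of both CAF CM and with IFNγ. It was assigned to one stimulus when it was higher than baseline with that stimulus, not called higher with the other, and also differed between the stimuli themselves. Since the mean was used, a gene need not be called against baseline with each medium. Among shared genes, Acod1 was called with each, Cxcl10 with KO CAF CM (adjusted p = 0.00377 in limma) but not WT CAF CM (0.104), and Ido1 with neither (0.0547 with WT and 0.204 with KO CAF CM). Among all named genes, 6.89% were higher and 8.28% lower than baseline with CAF CM, and 5.54% higher and 6.98% lower with IFNγ. Both differences from baseline use the same 2 not stimulated arrays and so are not independent. By this rule 52 inflammatory genes were shared (1.68% of all named genes had this pattern), 61 belonged to CAF CM (3.72% of all named genes) and 67 to IFNγ (3.24%). The count of shared genes was 33 without replicate 1 of the not stimulated macrophages. In all 10 fits that each left out 1 array, 26 of the 52 shared genes, 44 of the 61 genes of CAF CM and 50 of the 67 genes of IFNγ held their pattern. Against each other directly, 81 inflammatory genes were higher (8.41% of all named genes) and 109 lower (7.49%) with CAF CM than with IFNγ, with a median difference of -0.14 over the 318 genes beside -0.01 over all named genes.

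Of the 52 shared genes, 5 were higher with CAF CM than with IFNγ (0.205% of all named genes), 29 were lower (0.456%) and 18 did not pass the test in either direction. Some genes of one stimulus moved the other way with the other. Of the 61 genes of CAF CM, 18 were higher than baseline with CAF CM and lower with IFNγ (0.600% of all named genes), and of the 67 genes of IFNγ, 11 were lower with CAF CM and higher with IFNγ (0.528%). Another 10 inflammatory genes were lower than baseline with both (3.36%).

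**Figure D2:**
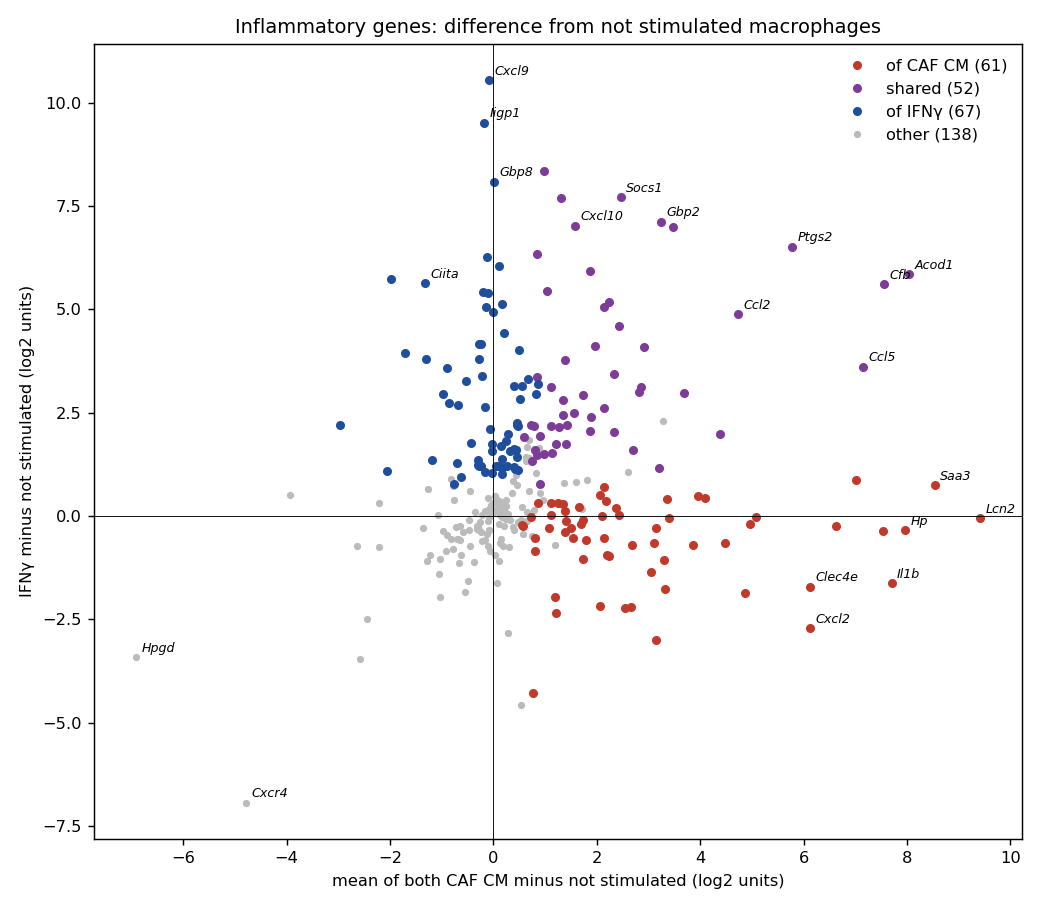
Difference of the CAF CM mean (x axis) and of IFNγ (y axis) from not stimulated macrophages in log2 units, 1 point per inflammatory gene (318), coloured by pattern. Genes of CAF CM lie along the right of the x axis, genes of IFNγ along the top of the y axis, and the 52 shared genes between them, with Acod1, Cfb and Ptgs2 far out on both axes.

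The 5 shared genes that were higher with CAF CM than with IFNγ encode an enzyme, secreted proteins, a receptor and a feedback inhibitor. Acod1, which makes itaconate from an intermediate of the citrate cycle, had 16.51 and 17.02 in WT CAF CM, 17.20 and 17.42 in KO CAF CM, 14.51 and 15.19 with IFNγ and 9.08 and 8.92 in not stimulated macrophages. It was higher than baseline by 8.04 with CAF CM and 5.85 with IFNγ, and higher with CAF CM than with IFNγ by 2.19 (SE 0.22, adjusted p = 2e-05). Cfb, complement factor B of the alternative pathway, gave 11.51 and 13.44 in WT CAF CM, 12.99 and 12.37 in KO CAF CM, 11.17 and 10.11 with IFNγ and 5.01 and 5.05 in not stimulated macrophages. Its difference of 1.94 (SE 0.45, adjusted p = 0.011) between the stimuli was no longer called without replicate 2 of IFNγ (1.41, adjusted p = 0.177). Ccl5, a chemokine for T cells and monocytes, had 13.67 and 16.94 in WT CAF CM, 15.33 and 14.41 in KO CAF CM, 11.80 and 11.29 with IFNγ and 7.79 and 8.07 in not stimulated macrophages. It was higher with CAF CM than with IFNγ by 3.54 (SE 0.66, adjusted p = 0.0026), although replicate 1 of WT CAF CM lay far under replicate 2, and the call was lost with trend and robust moderation of the spread (adjusted p = 0.0597). Socs3, the feedback inhibitor of gp130 receptors, was higher by 2.39 (SE 0.51, adjusted p = 0.0066), a call that was lost without replicate 1 of IFNγ (2.25, adjusted p = 0.0727). Its place among the shared genes was held in 2 of the 10 fits that left out 1 array, and with IFNγ against baseline its adjusted p was 0.0485. Tlr1, which pairs with TLR2 to sense bacterial lipopeptides, completed the 5 with 2.04 (SE 0.19, adjusted p = 9.7e-06).

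Among the 18 shared genes for which no difference between CAF CM and IFNγ was called were well-known products of activated macrophages. Tnf read 13.71 and 14.17 in WT CAF CM, 16.18 and 15.87 in KO CAF CM, 13.99 and 14.56 with IFNγ and 11.25 and 11.36 in not stimulated macrophages. Its difference between CAF CM and IFNγ was 0.71 (95% interval -0.10 to 1.52, adjusted p = 0.281). Ptgs2, the inducible cyclooxygenase, had 9.93 and 11.47 in WT CAF CM, 11.88 and 12.25 in KO CAF CM, 12.34 and 11.88 with IFNγ and 6.2 and 5.0 in not stimulated macrophages and differed by -0.73 (95% interval -1.62 to 0.17, adjusted p = 0.324). Both were above baseline on every stimulated array. Nos2, which makes nitric oxide, gave 7.22 and 9.46 in WT CAF CM, 7.85 and 7.74 in KO CAF CM, 7.98 and 8.72 with IFNγ and 4.58 and 5.86 in not stimulated macrophages. Its difference of -0.28 (95% interval -1.50 to 0.93, adjusted p = 0.833) had an interval wide enough to hold more than a doubling in the direction of IFNγ. Ccl2, the chemokine for monocytes, differed by -0.16 (95% interval -1.92 to 1.60, adjusted p = 0.944), with the IFNγ arrays themselves at 10.62 and 13.01 and replicate 2 above replicate 1 in all 5 conditions. Il4ra, the IL4 receptor chain, differed by -0.32 (95% interval -0.84 to 0.19, adjusted p = 0.475). Icam1, an adhesion molecule for T cells, differed by -0.18 (95% interval -0.79 to 0.42, adjusted p = 0.772), Isg15, a ubiquitin-like antiviral modifier, by -0.48 (95% interval -1.11 to 0.15, adjusted p = 0.365), and Nod2, a sensor of bacterial cell wall, by -0.19 (95% interval -0.91 to 0.54, adjusted p = 0.812). A difference that was not called does not show that the stimuli act alike on these genes.

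The 29 shared genes with the higher level under IFNγ included interferon-response genes with a smaller increase over baseline with CAF CM. Gbp2, a guanylate-binding protein, read 13.75 and 14.34 in WT CAF CM, 15.25 and 14.81 in KO CAF CM, 18.40 and 18.42 with IFNγ and 11.89 and 10.70 in not stimulated macrophages. It exceeded baseline by 3.24 with CAF CM and 7.12 with IFNγ. Cxcl10, another CXCR3 ligand, had 9.88 and 10.03 in WT CAF CM, 11.02 and 10.64 in KO CAF CM, 15.70 and 15.99 with IFNγ and 9.60 and 8.04 in not stimulated macrophages, so that the lowest CAF CM array lay just above the higher baseline array. Socs1, the feedback inhibitor of JAK kinases, was higher than baseline by 2.47 with CAF CM and 7.71 with IFNγ. Cd274, which encodes the checkpoint ligand PD-L1, was higher by 2.91 with CAF CM and 4.09 with IFNγ, and Pla2g4a, the cytosolic phospholipase that frees arachidonic acid, by 1.97 with CAF CM and 4.12 with IFNγ. The differences between CAF CM and IFNγ were -3.87 in Gbp2, -5.45 in Cxcl10, -5.24 in Socs1, -1.18 in Cd274 and -2.14 in Pla2g4a. That of Cd274 was not called when either IFNγ array was left out (adjusted p = 0.0712 and 0.0689).

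**Figure D3:**
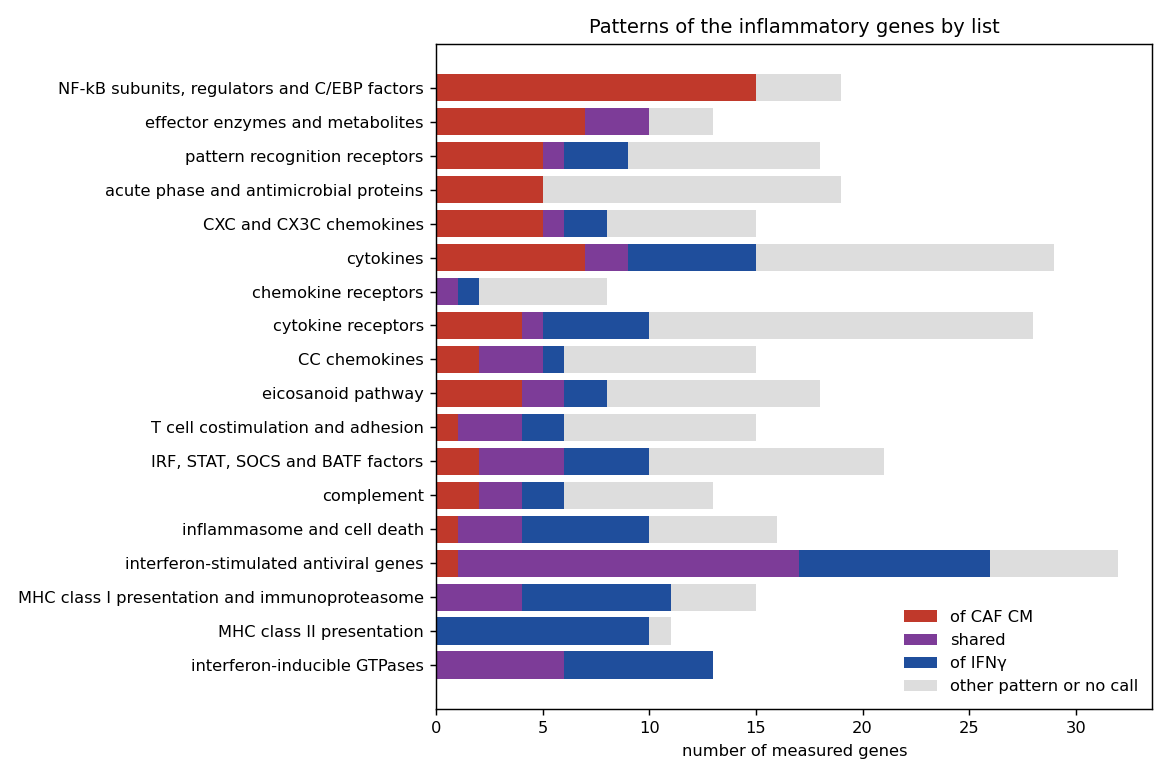
Number of measured genes (x axis) of each of the 18 inflammatory lists (y axis) that belong to CAF CM, are shared, belong to IFNγ or have another pattern or no call. The list of NF-kB subunits, regulators and C/EBP factors holds 15 genes of CAF CM, that of MHC class II holds 10 genes of IFNγ, and the interferon-stimulated antiviral genes hold 16 shared genes.

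Chemokine genes were split between the stimuli. Beside this and the later list counts, 8.41% of all named genes were higher and 7.49% lower with CAF CM than with IFNγ. Of 15 CXC and CX3C chemokines, 6 were higher and 3 lower with CAF CM than with IFNγ. Cxcl2 and Cxcl3 encode ligands of CXCR2, which draw neutrophils, and were on the CAF CM side. Cxcl2 had 13.71 and 15.41 in WT CAF CM, 15.27 and 15.10 in KO CAF CM, 6.14 and 5.90 with IFNγ and 9.04 and 8.44 in not stimulated macrophages, a difference of 8.85 (SE 0.36, adjusted p = 1.4e-08), and so stood above baseline with CAF CM and below it with IFNγ. Cxcl3 was higher by 7.91 (SE 0.53, adjusted p = 7.3e-07), and the platelet factor gene Pf4 by 4.85 (SE 0.47, adjusted p = 1.7e-05). The 3 ligands of CXCR3, Cxcl9, Cxcl10 and Cxcl11 (-4.24), were the 3 lower ones. Among 15 CC chemokines 4 were higher, among them Ccl3 (4.77) and Ccl9 (3.12), and 2 lower, Ccl12 (-3.51) and Ccl8 (-4.96). Ccl9 differed mainly through its level with IFNγ and read 17.55 and 17.52 in WT CAF CM, 17.19 and 17.51 in KO CAF CM, 13.69 and 14.95 with IFNγ and 17.11 and 17.21 in not stimulated macrophages. Ccl8 was higher in replicate 2 than in replicate 1 in all 5 conditions, by 1.63 to 3.18, including 5.66 and 8.64 at baseline. Its difference was no longer called without replicate 2 of IFNγ (-4.15, adjusted p = 0.089) or with trend and robust moderation (adjusted p = 0.094). Of 8 chemokine receptors, Ccr2, which answers to Ccl2, was lower with CAF CM, with a difference of -5.16 (SE 0.25, adjusted p = 4.8e-08), whereas Cxcr4 was higher by 2.16 (SE 0.21, adjusted p = 1.6e-05) while lying below baseline with both (-4.78 with CAF CM and -6.94 with IFNγ). Cxcr4 was higher than with IFNγ by 3.44 in WT CAF CM and 0.88 in KO CAF CM, and with the 4 CAF CM arrays as 1 group the call was lost (adjusted p = 0.0621).

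Cytokine genes were evenly split, with 7 of 29 higher and 7 lower with CAF CM. Those of CAF CM included Il1b, Il1a and Il6. Il1a had 11.31 and 13.94 in WT CAF CM, 10.92 and 11.71 in KO CAF CM, 4.73 and 5.44 with IFNγ and 4.75 and 5.92 in not stimulated macrophages and differed by 6.88 (SE 0.64, adjusted p = 1.2e-05). Il6, which drives the acute phase response, read 8.10 and 8.68 in WT CAF CM, 9.27 and 9.34 in KO CAF CM, 3.60 and 3.77 with IFNγ and 4.10 and 3.67 in not stimulated macrophages and differed by 5.16 (SE 0.2, adjusted p = 8e-09). All of the CAF CM arrays lay above all IFNγ and not stimulated arrays in both genes. Arrays not overlapping with IFNγ were a condition for naming these genes, so that part adds no support. Those of IFNγ included Tnfsf10, the death ligand TRAIL (-6.38), Il18bp, the secreted antagonist of IL18 (-4.08), and Tnfsf13b, the B cell survival factor BAFF (-3.78). Of 28 cytokine receptor genes, 6 were higher and 6 lower. Tnfrsf1b, the second TNF receptor, was higher by 3.56, Il1rl2, the receptor chain for IL36, by 3.38 and Csf3r, through which G-CSF acts, by 1.78. Il12rb1, a chain of the IL12 receptor, was lower with CAF CM, with a difference of -5.95 (SE 0.2, adjusted p = 2.4e-09), and its signals with CAF CM (3.78 to 4.43) were near those at baseline.

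Some acute phase and antimicrobial genes were higher with CAF CM than with IFNγ. Of 19 measured, 6 were higher and 0 lower with CAF CM than with IFNγ in limma (10 higher and 0 lower at an unadjusted p under 0.05). With IFNγ 0 of them differed from baseline, and 3 did at an unadjusted p under 0.05. The median difference was 0.59. Saa3, a serum amyloid made by macrophages, had 18.39 and 18.70 in WT CAF CM, 18.30 and 18.26 in KO CAF CM, 10.89 and 10.37 with IFNγ and 9.53 and 10.23 in not stimulated macrophages. Hp, the hemoglobin scavenger haptoglobin, had 11.64 and 14.50 in WT CAF CM, 12.92 and 12.76 in KO CAF CM, 4.65 and 4.66 with IFNγ and 4.95 and 5.05 in not stimulated macrophages. The differences were 7.78 (SE 0.27, adjusted p = 3.7e-09) for Saa3 and 8.30 (SE 0.54, adjusted p = 5.7e-07) for Hp. S100a8, a chain of calprotectin, was higher by 5.14 (SE 0.59, adjusted p = 6.6e-05), but its partner chain S100a9, picked after its values were seen, averaged 6.39 with CAF CM and 6.70 with IFNγ. S100a8 is also a neutrophil marker. Of the 10 neutrophil markers measured, 2 were higher with CAF CM than with IFNγ (S100a8 and Mmp8, by 3.99) and 0 lower (4 and 0 at an unadjusted p under 0.05), and the mean signal of the list was 6.19 to 6.76 with CAF CM, 5.42 to 5.62 with IFNγ and 5.78 to 5.84 at baseline. Mmp8 differed mainly through its fall with IFNγ, at 0.22 from baseline with CAF CM and -3.77 with IFNγ. The 8 neutrophil markers with no call averaged 4.35 to 6.39 with CAF CM and 3.76 to 6.7 with IFNγ, with differences of -0.44 to 0.62. The part of neutrophils in these differences was not tested.

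Among the 18 inflammatory lists, that of NF-kB subunits, regulators and C/EBP factors had the highest median difference toward CAF CM. Of 19 NF-kB subunits, regulators and C/EBP factors, 16 were higher with CAF CM than with IFNγ and 0 lower in limma (17 and 0 at an unadjusted p under 0.05), with a median difference of 2.09. Against baseline, 16 were higher with CAF CM, whereas with IFNγ 0 were higher and 4 lower (1 and 6 at an unadjusted p under 0.05). Of the subunits, picked after their values were seen, Nfkb2 belonged to CAF CM. Rel, Rela and Relb were not called against baseline with either stimulus, and Nfkb1 was not matched to a probe set. Irak3, a brake on Toll-like receptor signaling, read 17.58 and 17.33 in WT CAF CM, 17.48 and 17.39 in KO CAF CM, 12.40 and 12.35 with IFNγ and 14.27 and 13.99 in not stimulated macrophages and differed by 5.07 (SE 0.16, adjusted p = 1.7e-09). Nfkbiz, a nuclear IkB protein that many secondary NF-kB targets need, differed by 4.56 (SE 0.23, adjusted p = 7.3e-08), and Cebpd, an acute phase transcription factor, by 4.41 (SE 0.21, adjusted p = 4.7e-08). Irak3 and Cebpd were above baseline with CAF CM and below it with IFNγ (3.32 with CAF CM and -1.76 with IFNγ for Irak3, and 3.06 with CAF CM and -1.35 with IFNγ for Cebpd).

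The transcription factors and feedback inhibitors of the JAK/STAT pathway leaned the other way. Of 21 IRF, STAT, SOCS and BATF genes, 3 were higher with CAF CM (Batf, 2.96, Socs3 and Stat4, 1.44) and 8 lower. Stat4 lost its call without replicate 1 of IFNγ (1.16, adjusted p = 0.0541). Irf1, a master factor of the interferon response, had 11.81 and 11.49 in WT CAF CM, 12.11 and 11.56 in KO CAF CM, 16.15 and 16.13 with IFNγ and 12.24 and 11.72 in not stimulated macrophages. With CAF CM it lay within the range of not stimulated macrophages or close below it, and the difference from IFNγ was -4.40 (SE 0.22, adjusted p = 7.5e-08). Batf2, a partner of IRF1, was lower with CAF CM, with a difference of -6.38 (SE 0.23, adjusted p = 4.5e-09), but still above baseline (1.32 with CAF CM and 7.70 with IFNγ).

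**Figure D4:**
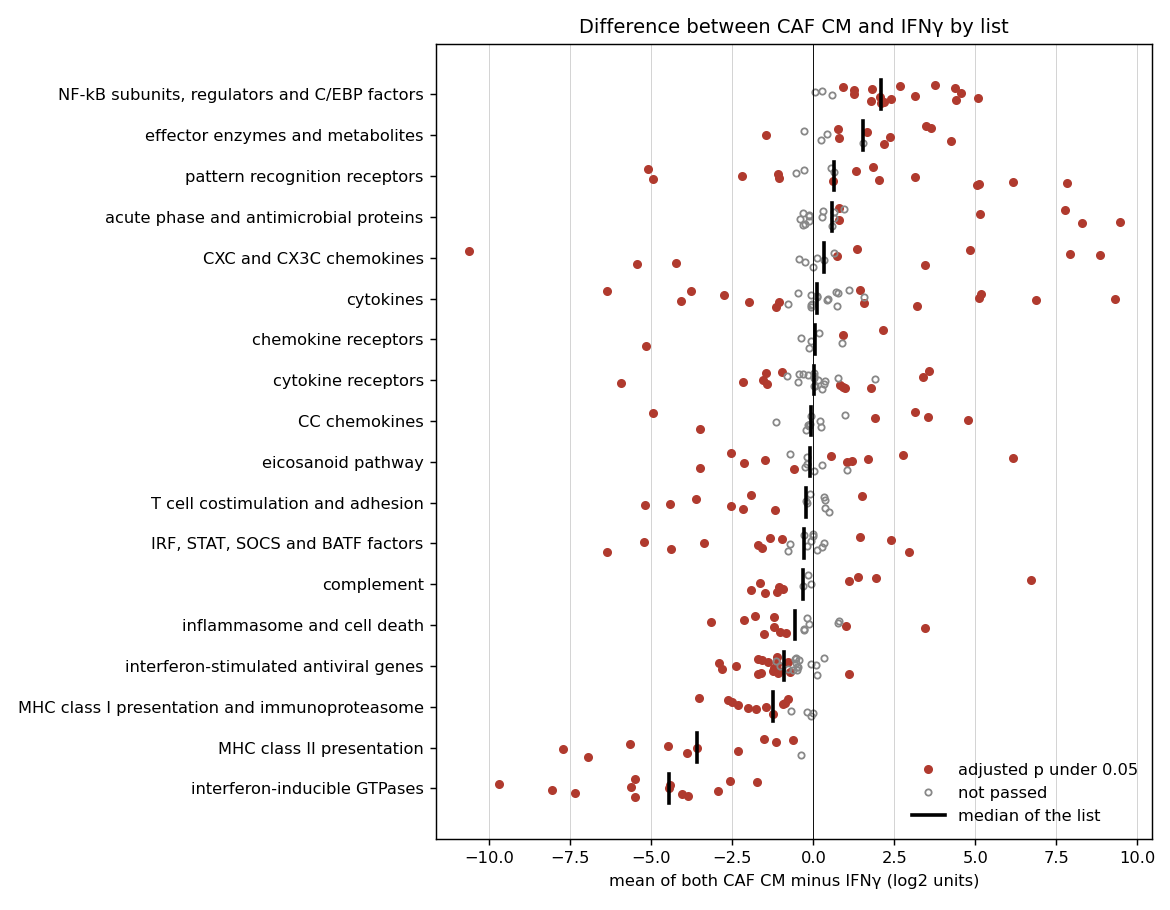
Difference between the CAF CM mean and IFNγ in log2 units (x axis) for each measured gene of the 18 inflammatory lists (y axis, ordered by median), with filled points for an adjusted p under 0.05 and a black bar for the median of the list. Medians run between 2.09 for NF-kB subunits, regulators and C/EBP factors at the top and -4.45 for the interferon-inducible GTPases at the bottom.

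Interferon-inducible GTPases and antigen presentation were on the IFNγ side without exception among the members called. All 13 measured GTPases were lower with CAF CM than with IFNγ, with differences of -9.70 to -1.75 and a median of -4.45. They were not uniform against baseline, since 6 were shared and 7 belonged to IFNγ. Gbp4 had 9.44 and 9.28 in WT CAF CM, 9.91 and 9.64 in KO CAF CM, 16.93 and 16.92 with IFNγ and 9.09 and 8.07 in not stimulated macrophages, and Gbp8 had 7.14 and 7.03 in WT CAF CM, 6.52 and 7.14 in KO CAF CM, 15.06 and 15.01 with IFNγ and 7.18 and 6.71 in not stimulated macrophages. Gbp4 therefore showed a small increase with the mean of both CAF CM and Gbp8 none that was called. By itself, the increase of Gbp4 was called with KO CAF CM (adjusted p = 0.0122 in limma) but not with WT CAF CM (adjusted p = 0.126). Members of this family are close in sequence, and probes may read more than 1 of them. Of 11 MHC class II presentation genes, 10 were lower with CAF CM than with IFNγ (median -3.58), all 10 of them higher than baseline with IFNγ, and 5 were lower than baseline with CAF CM. Ciita, the master regulator of MHC class II, had 7.09 and 5.29 in WT CAF CM, 6.2 and 5.67 in KO CAF CM, 13.32 and 12.72 with IFNγ and 8.07 and 6.70 in not stimulated macrophages. It differed by -6.96 (SE 0.52, adjusted p = 1.9e-06). H2-DMa, which loads peptides, had 8.60 and 7.70 in WT CAF CM, 7.21 and 6.85 in KO CAF CM, 15.45 and 15.19 with IFNγ and 10.60 and 8.55 in not stimulated macrophages, and H2-Eb1, a class II chain, differed by -5.65 (SE 0.31, adjusted p = 1.5e-07). The not stimulated arrays of H2-DMa lay well apart.

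MHC class I genes followed a milder form of this pattern, with 11 of 15 lower with CAF CM than with IFNγ and a median of -1.25. The immunoproteasome genes Psmb8 and Psmb10 were higher than baseline with both stimuli, Psmb8 by 1.35 with CAF CM and 2.80 with IFNγ and Psmb10 by 1.11 with CAF CM and 3.12 with IFNγ. Tapbpl, a peptide editor of class I, belonged to IFNγ (-3.53). The interferon-stimulated antiviral genes were the list with most overlap. Of 32 members, 18 were higher than baseline with CAF CM and 28 with IFNγ, and 16 were shared. For 9 of those 16 no difference between CAF CM and IFNγ was called, and 7 were lower with CAF CM. Oasl1, of the oligoadenylate synthetase family, differed by -2.93 (SE 0.37, adjusted p = 0.00014), and Ifit2, which binds viral RNA, by -2.81 (SE 0.28, adjusted p = 2.4e-05). Ddx58, which encodes the RNA sensor RIG-I, was the single member that was higher with CAF CM, by 1.09 (SE 0.2, adjusted p = 0.0025), a call lost without replicate 1 of IFNγ (0.92, adjusted p = 0.052).

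Sensors of microbes were split between the stimuli. Of 18 pattern recognition receptors, 9 were higher and 5 lower with CAF CM. The 3 C-type lectin receptors Clec4e, Clec4n and Clec4d of the cell surface stood on the CAF CM side. Clec4e (Mincle), which senses mycobacterial glycolipid, had 16.44 and 17.15 in WT CAF CM, 17.39 and 17.20 in KO CAF CM, 9.33 and 9.07 with IFNγ and 11.03 and 10.80 in not stimulated macrophages and differed by 7.84 (SE 0.21, adjusted p = 4.3e-10). Clec4n (Dectin-2) differed by 6.15 (SE 0.18, adjusted p = 7.8e-10). Clec4d also differed, by 5.12 (SE 0.17, adjusted p = 2.2e-09), but largely through its fall with IFNγ, with 0.54 with CAF CM and -4.58 with IFNγ against baseline. The Toll-like receptors did not divide by their place in the cell. Lower with CAF CM were Tlr9, for bacterial DNA (-5.11), Tlr12, which senses profilin of parasites (-4.95), Tlr3, for double-stranded RNA (-2.20), Tlr4, for lipopolysaccharide (-1.10), and Tlr13, for bacterial RNA (-1.07). Higher were Tlr1, Tlr2 (3.15) and Tlr7, the endosomal sensor of single-stranded RNA (1.30), while Tlr5, Tlr6 and Tlr8 were not called. Against baseline, Tlr4 and Tlr13 were lower with CAF CM and not called higher with IFNγ. Tlr7 was lower than baseline with IFNγ and not called higher with CAF CM. Among 16 inflammasome and cell death genes 2 were higher, Mefv, which encodes pyrin (3.44), and Naip2 (1.0), and 8 lower, led by Nlrp1b (-3.16), Nod1 (-2.13) and the necroptosis kinase Ripk3 (-1.80).

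Enzymes of arginine, redox and lipid mediator metabolism also separated the stimuli. Of 13 effector enzymes, 8 were higher with CAF CM and 1 lower, with a median of 1.54. Arg2, the mitochondrial arginase, had 9.78 and 10.73 in WT CAF CM, 7.05 and 6.6 in KO CAF CM, 4.26 and 4.34 with IFNγ and 6.70 and 6.24 in not stimulated macrophages and differed by 4.24 (SE 0.26, adjusted p = 3.6e-07). Slc7a2, which imports arginine, was higher by 3.64 (SE 0.7, adjusted p = 0.0033, and 0.0717 with trend and robust moderation) and Sod2, the mitochondrial superoxide dismutase, by 3.46 (SE 0.19, adjusted p = 1.7e-07). Ido1, which degrades tryptophan, differed by -1.46 (SE 0.22, adjusted p = 0.00066) at low signals throughout (2.91 to 5.51). In the eicosanoid pathway, 6 of 18 genes were higher and 5 lower. Ptges, which makes prostaglandin E2 from the product of Ptgs2, had 11.77 and 14.82 in WT CAF CM, 13.45 and 13.25 in KO CAF CM, 7.57 and 6.77 with IFNγ and 6.08 and 6.53 in not stimulated macrophages. It differed by 6.15 (SE 0.61, adjusted p = 2e-05), while Ptgs2 was shared. Hpgd, which degrades prostaglandin E2, was below baseline with both (-6.91 with CAF CM and -3.42 with IFNγ), and CAF CM minus IFNγ was -3.49 (SE 0.24, adjusted p = 9.2e-07). Tbxas1, the thromboxane synthase, differed by -2.53.

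Complement genes were split between the stimuli, and most costimulation genes that were called were lower with CAF CM. Of 13 complement genes 4 were higher with CAF CM and 6 lower. Cd55, which protects cells from complement, was higher by 6.73 (SE 0.46, adjusted p = 8.7e-07) and Cfp, which stabilises the alternative pathway convertase, by 1.37. C1qc (-1.92), C4b (-1.66) and C1qa (-1.50) of the classical pathway were lower. C4b was above baseline with IFNγ (1.36). C1qc and C1qa were instead below baseline with CAF CM (-1.27 and -0.79), and no rise with IFNγ was called for them. Of 15 genes of T cell costimulation and adhesion, 1 was higher, Tnfsf4, the ligand of OX40, by 1.51 (SE 0.35, adjusted p = 0.011), and its call was lost when either IFNγ array was left out (adjusted p = 0.105 and 0.0577) or the 4 CAF CM arrays formed 1 group (adjusted p = 0.0537). The 7 lower ones included Cd86, the ligand of CD28, which had 7.90 and 8.21 in WT CAF CM, 6.80 and 7.17 in KO CAF CM, 12.53 and 12.89 with IFNγ and 7.53 and 7.78 in not stimulated macrophages. Its difference was -5.19 (SE 0.25, adjusted p = 4.7e-08). Havcr2 (TIM-3) differed by -4.44 (SE 0.2, adjusted p = 3.1e-08) and was below baseline with CAF CM (-3.92 with CAF CM and 0.52 with IFNγ), and Pdcd1lg2 (PD-L2) by -3.61 (SE 0.2, adjusted p = 1.9e-07).

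Promoter sequences were read to show which elements stand near these genes. RefSeq windows on GRCm38.p6, 250 bases before and 50 after a transcript start, were found for 38 of the 52 shared genes (48 windows), 48 of the 61 genes of CAF CM (54 windows) and 50 of the 67 genes of IFNγ (59 windows). They were searched on both strands for ISRE (GAAA, any 2 bases, GAAA), GAS (TTC, any 3 bases, GAA) a kB element (GGG, any 5 bases, CC), a C/EBP element (TTGC, any 2 bases, AA) and AP1 (TGA, any 1 base, TCA), each counted by itself where matches overlapped another motif. ISRE letters were in 27.1% of the windows of shared genes, 9.26% of those of CAF CM and 20.3% of those of IFNγ, beside 3.44% of all 32851 windows. GAS letters were in 22.9% of the windows of shared genes, 11.1% of those of CAF CM and 16.9% of those of IFNγ, beside 8.3% of all. kB letters are loose and were in 58.3% of the windows of shared genes, 66.7% of those of CAF CM and 49.2% of those of IFNγ, beside 50.8% of all. C/EBP letters were in 6.25% of the windows of shared genes, 13% of those of CAF CM and 18.6% of those of IFNγ, beside 10.8% of all. AP1 letters were in 10.4% of the windows of shared genes, 14.8% of those of CAF CM and 18.6% of those of IFNγ, beside 7.81% of all. For both, the share was higher in genes of IFNγ than in genes of CAF CM. These shares are a description without a test, and a match is not evidence of binding. The windows of 6 genes of the 3 patterns are printed 5′ to 3′ along the gene, with ISRE, GAS and kB matches in capitals and C/EBP and AP1 matches not marked. Cxcl2 and Saa3 are genes of CAF CM, Cxcl9 and Irf1 (the first of 2 windows) of IFNγ, and Cxcl10 and Gbp2 are shared.
Cxcl2 (chr5:90903649-90903948, plus strand): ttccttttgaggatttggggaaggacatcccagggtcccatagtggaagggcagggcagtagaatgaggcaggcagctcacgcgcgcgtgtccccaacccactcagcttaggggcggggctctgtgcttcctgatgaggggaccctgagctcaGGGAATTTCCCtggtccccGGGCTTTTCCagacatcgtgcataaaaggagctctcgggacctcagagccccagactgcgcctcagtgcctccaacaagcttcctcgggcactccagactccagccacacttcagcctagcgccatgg
Saa3 (chr7:46715627-46715926, minus strand): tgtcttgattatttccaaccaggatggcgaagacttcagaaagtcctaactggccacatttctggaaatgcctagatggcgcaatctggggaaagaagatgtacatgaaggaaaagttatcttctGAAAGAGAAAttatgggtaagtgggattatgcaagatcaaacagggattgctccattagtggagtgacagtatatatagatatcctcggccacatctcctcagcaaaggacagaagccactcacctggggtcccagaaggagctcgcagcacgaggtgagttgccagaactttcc
Cxcl9 (chr5:92328030-92328329, minus strand): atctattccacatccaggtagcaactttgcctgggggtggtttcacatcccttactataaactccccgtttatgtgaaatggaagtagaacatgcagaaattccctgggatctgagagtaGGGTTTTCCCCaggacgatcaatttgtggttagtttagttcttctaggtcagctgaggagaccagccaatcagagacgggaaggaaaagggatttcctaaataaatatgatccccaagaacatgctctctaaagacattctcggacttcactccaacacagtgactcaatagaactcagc
Irf1 (chr11:53769764-53770063, plus strand): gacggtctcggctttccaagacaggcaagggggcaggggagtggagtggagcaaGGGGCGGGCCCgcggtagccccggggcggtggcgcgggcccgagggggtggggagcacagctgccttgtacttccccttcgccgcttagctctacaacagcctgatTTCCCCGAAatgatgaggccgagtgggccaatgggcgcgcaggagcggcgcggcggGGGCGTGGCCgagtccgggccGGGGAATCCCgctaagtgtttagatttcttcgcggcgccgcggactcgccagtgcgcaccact
Cxcl10 (chr5:92348840-92349139, minus strand): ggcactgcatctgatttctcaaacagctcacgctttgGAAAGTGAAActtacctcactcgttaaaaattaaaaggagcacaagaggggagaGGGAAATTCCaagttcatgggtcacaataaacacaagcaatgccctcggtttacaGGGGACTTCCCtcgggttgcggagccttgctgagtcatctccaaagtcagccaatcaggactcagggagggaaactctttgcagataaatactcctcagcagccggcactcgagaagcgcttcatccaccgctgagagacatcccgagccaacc
Gbp2 (chr3:142620413-142620712, plus strand): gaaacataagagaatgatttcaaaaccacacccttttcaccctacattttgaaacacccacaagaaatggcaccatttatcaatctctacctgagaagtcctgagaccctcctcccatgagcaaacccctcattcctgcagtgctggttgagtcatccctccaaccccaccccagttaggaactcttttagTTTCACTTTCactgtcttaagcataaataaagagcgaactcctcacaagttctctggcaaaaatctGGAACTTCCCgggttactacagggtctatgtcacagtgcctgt
Of the 5 motifs Cxcl2 holds kB letters only, 78 and 97 bases before the start. Saa3, a gene of CAF CM, holds an ISRE match, a C/EBP match and no kB match. Cxcl9, the gene with the largest difference toward IFNγ, has kB letters, an AP1 match and neither an ISRE nor a GAS match in this window, which says nothing of elements farther away. Irf1 holds kB letters and a GAS match 90 bases before its start in the window printed, while its second window holds none of the 5 motifs. Cxcl10 and Gbp2 each hold an ISRE match together with kB letters and an AP1 match.

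Outside the inflammatory lists, targets of NRF2 and genes of iron handling had a median difference toward CAF CM as well. Of 14 measured, 11 were higher with CAF CM than with IFNγ and 0 lower in limma (median 2.42, with 12 and 0 at an unadjusted p under 0.05), and against baseline 10 were lower with IFNγ while 6 were higher with CAF CM. Nqo1, a quinone reductase, had 10.06 and 8.65 in WT CAF CM, 12.69 and 11.20 in KO CAF CM, 5.97 and 5.84 with IFNγ and 8.49 and 8.54 in not stimulated macrophages. Proteases, inhibitors and matrix genes gave 11 of 24 higher and 3 lower, the lower ones including Plau, the urokinase (-4.90), and Mmp25 (-4.49). Of 12 scavenger receptors, 6 were higher with CAF CM, among them Olr1, which binds oxidised lipoprotein (2.84), and Scarb1 was the only lower one (-0.89, a call lost without either IFNγ array, adjusted p = 0.101 and 0.0522). The Fc receptors gave 1 of 7 higher, the inhibitory Fcgr2b (2.96), and 4 lower, led by the activating Fcgr4 (-4.11).

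Cell cycle genes were lower with CAF CM than with IFNγ, 15 of 20 and 0 higher in limma (median -1.63, with 17 and 0 at an unadjusted p under 0.05). Against baseline 13 were lower with CAF CM, and with IFNγ 6 were higher and 1 lower. Rrm2, a subunit of ribonucleotide reductase, read 5.39 and 5.14 in WT CAF CM, 5.12 and 5.07 in KO CAF CM, 8.02 and 9.32 with IFNγ and 7.32 and 7.38 in not stimulated macrophages. Of 13 genes of sterol synthesis and efflux 7 were higher with CAF CM and 3 lower. Abca1, which exports cholesterol, differed by 3.32 (SE 0.2, adjusted p = 2.7e-07) and lay below baseline with IFNγ alone (-0.12 with CAF CM and -3.44 with IFNγ), whereas Ch25h, which makes 25-hydroxycholesterol, had 4.69 and 5.28 in WT CAF CM, 5.15 and 5.21 in KO CAF CM, 11.73 and 13.17 with IFNγ and 4.87 and 5.11 in not stimulated macrophages. Glycolysis genes were mixed, with 5 of 16 higher and 3 lower, Pfkl higher (1.65) and its isoenzyme Pfkp lower (-2.98). Lysosomal genes gave 4 of 15 higher and 2 lower, with differences of -0.76 to 1.04, beside 8.41% higher and 7.49% lower of all named genes.

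Of 10 fibroblast markers, 2 were higher with CAF CM than with IFNγ, Acta2 (2.24) and Pdgfrb (1.10, a call lost without either IFNγ array, adjusted p = 0.228 and 0.137, or without replicate 2 of WT or of KO CAF CM, adjusted p = 0.101 and 0.0988), and the mean signal of the list was 4.96 to 5.11 with CAF CM, 4.69 to 4.74 with IFNγ and 4.86 to 4.92 at baseline. Acta2 was 0.36 from baseline with CAF CM and -1.87 with IFNγ. The 8 fibroblast markers with no call averaged 3.65 to 5.98 with CAF CM and 3.68 to 6.42 with IFNγ, with differences of -0.45 to 0.25. The part of fibroblast RNA in these differences was not tested. With limma 0 of 11 lymphocyte markers and 0 of 8 mast cell and basophil markers differed, with lowest adjusted p of 0.166 and 0.156 (Cd79b and Cpa3) and 1 gene of each list at an unadjusted p under 0.05. Of the 8 macrophage identity genes 4 were higher with CAF CM, led by Adgre1, the classical surface marker of mouse macrophages (1.59), and 2 lower, Mertk and Aif1 (-0.92, a call lost without either IFNγ array, adjusted p = 0.09 and 0.105).

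Among the inflammatory genes called for the mean of both media, WT and KO CAF CM mostly stood on the same side of IFNγ. Of the 190 inflammatory genes called, 166 were called with the same sign in each medium (2034 of all 3373 probe sets called). In limma 0 had opposite signs, also 0 at an unadjusted p under 0.05. The 190 were called on the mean of both media, where opposite signs cancel, so these counts add little support. The CAF CM and IFNγ arrays did not overlap in 185 of the 190, but the same held for 3276 of all 3373 probe sets called. Between the media themselves, 302 probe sets differed (1.36%), among them 18 of those 190 genes and 215 of all 3373 probe sets called. Of the 153 named genes 17 differed, and 2 of these stood apart from IFNγ with one medium only. Tnf was -0.34 from IFNγ with WT CAF CM (adjusted p = 0.754) and 1.75 with KO CAF CM (adjusted p = 0.0162), and the difference between the media was itself called (-2.08, adjusted p = 0.0387). Cd40, the receptor for T cell help, was -3.30 with WT CAF CM (adjusted p = 0.000152) and -1.05 with KO CAF CM (adjusted p = 0.123), with -2.25 between the media (adjusted p = 0.02), and the difference of their mean from IFNγ (-2.18) was lost with the 4 CAF CM arrays as 1 group (adjusted p = 0.0539). Arg2 and Mmp8 were higher than with IFNγ in both media but more so with WT CAF CM, by 3.43 and 2.73 log2 units over KO CAF CM. Only WT CAF CM raised them over baseline. In limma, Arg2 was 3.785 from baseline with WT CAF CM (adjusted p = 1.03e-05) and 0.355 with KO CAF CM (adjusted p = 0.549). Mmp8 was 1.585 with WT CAF CM (adjusted p = 0.00101) and -1.145 with KO CAF CM (adjusted p = 0.00547). With IFNγ both genes lay below baseline (-2.17 and -3.77).

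**Figure D5:**
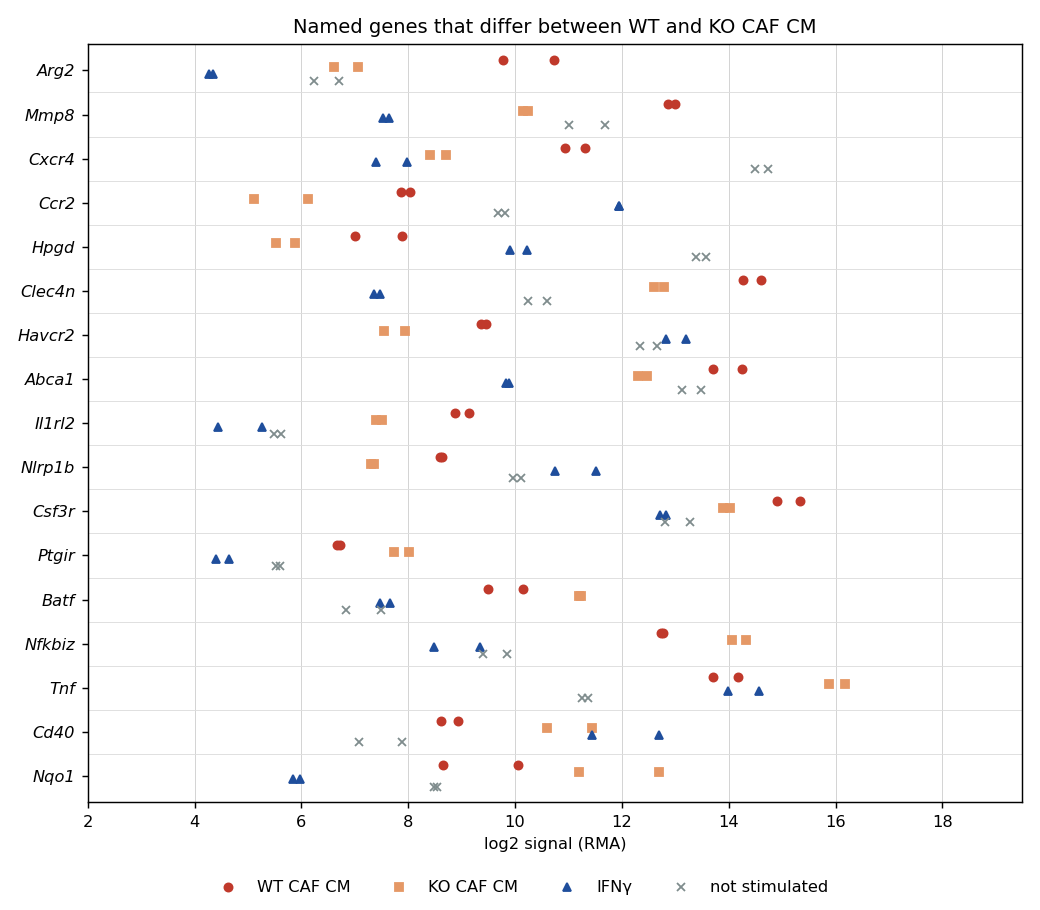
Log2 RMA signal (x axis) of the 17 named genes that differ between WT and KO CAF CM, with 1 mark per array. In Tnf the KO CAF CM marks lie above those of WT CAF CM and IFNγ, which overlap, and in Arg2, Mmp8 and Clec4n the marks run in the order WT CAF CM, KO CAF CM, IFNγ, high to low.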

How the data were processed

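RNA of mouse BMDMΦs was hybridised to 10 Clariom S arrays. The authors deposited log2 signals made by RMA, with 2 decimals, which were used unchanged with 0 columns left out; their processing notes name RMA and limma without versions, and the study's methods name the array maker's analysis software. Groups come from the sample titles. Gene names come from the platform's table: 2634 probe sets carry none here, and of 55 symbols on several probe sets the one with the highest mean was taken.

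In limma 3.58.1 (R 4.3.3), 1 linear model held the 5 condition means of the 10 arrays, with 5 residual and 6.43 prior degrees of freedom, with the mean of both CAF CM minus IFNγ as contrast and Benjamini-Hochberg adjustment over 22206 probe sets. Intervals are 95% and moderated. On simulated data for this comparison (22206 probe sets, 200 changed) the fit found 67.2% of changes of 1 log2 unit, 94% of 2 and 100% of 3, with 5 of 179 calls false. The number of arrays limits the precision.

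The members, 32 gene lists and tests were chosen with earlier results of these data known. Named genes are Marco, Lcn2 and Cxcl9, the 10 largest called differences in each direction whose arrays do not overlap, of each inflammatory list the 3 largest in each direction and 3 strongest shared genes, and of each other list the 2 largest in each direction (or 2 with the smallest p). Alternatives were a filter on the dimmest 33.3%, other thresholds, moderation, weights, normalization, array subsets, a replicate block, a t-test without moderation and each array left out. Plots were made in Python 3.11.15 (matplotlib 3.10.9).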

Additional observations from a re-analysis of the deposited data

Results flagged for a closer look

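Among the named genes, 17 had a difference from IFNγ that was not the same with the medium of WT CAFs as with that of KO CAFs, tested as the difference between the media in limma with adjustment over all probe sets. All values are WT CAF CM minus KO CAF CM on the log2 scale. The difference was positive in Arg2 (3.43), Mmp8 (2.73), Cxcr4 (2.57), Ccr2 (2.33), Hpgd (1.75), Clec4n (1.74), Havcr2 (1.67), Abca1 (1.59), Il1rl2 (1.56), Nlrp1b (1.29) and Csf3r (1.16). It was negative in Ptgir (-1.17), Batf (-1.40), Nfkbiz (-1.43), Tnf (-2.08), Cd40 (-2.25) and Nqo1 (-2.59). In 15 of the 17 both media were called against IFNγ with the same sign, and Tnf and Cd40 were the exceptions. In all 17 genes both arrays of one medium lay above both arrays of the other. The genes were chosen by the test on these same arrays, so this adds no support for the differences. The spread between the replicates of a medium was wide in Nqo1, at 10.06 and 8.65 with WT CAF CM and 12.69 and 11.20 with KO CAF CM. With 2 arrays per condition, single arrays were not tested as outliers.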

How the results depend on the processing

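The numbers of calls depended on thresholds and on the test more than on normalization. Beside 3373 probe sets called between CAF CM and IFNγ (1777 higher, 1596 lower), 1933 (970 and 963) were also at least 2-fold apart, and 2233 (1138 higher) had an adjusted p under 0.01, at which WT CAF CM gave 1680 and KO CAF CM 2047. A t-test without moderation gave 4423 calls at an unadjusted p under 0.05 and, adjusted, 939 (416 higher, 523 lower), 8 for WT CAF CM and 13 for KO CAF CM, and 0 shared inflammatory genes, 15 of CAF CM and 1 of IFNγ. In the lists where limma called 0 genes higher or lower between CAF CM and IFNγ, that t-test, adjusted, also gave 0. With far fewer calls than limma in all, it could hardly give more, so its 0 adds little. Unadjusted, it called 1 gene lower among the fibroblast markers and 1 among the lymphocyte markers. Leaving out 1 array at a time gave 2157 to 3286 calls, with 1064 to 1734 higher, and 33 to 54 shared inflammatory genes, the low ends without an IFNγ array or a not stimulated one. Among single genes called shared without a difference between the stimuli, the sign changed in Ccl2 (-1.36 to 1.03), Nos2 (-0.84 to 0.28) and Nod2 (-0.59 to 0.22).

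The titles give the same 2 numbers to the arrays of every condition, and what a number marks is not stated. Same-numbered arrays of 10 pairs of conditions correlated at -0.049 to 0.194, 3 of them over 0.1 (those among KO CAF CM, IFNγ and not stimulated), so the numbers were not taken as pairs for all conditions. With the replicate number as a block 3551 probe sets were called, none of the 153 named genes changed its call, and 51 of the 52 shared genes, 60 of the 61 genes of CAF CM and 66 of the 67 genes of IFNγ held their pattern. The order of the replicates was the same in all 5 conditions on 7.86% of all probe sets and in 22 of the 153 named genes. With the replicate block the interval of Ccl2 was -0.93 to 0.61 (adjusted p = 0.848) and that of Ccl8 was -5.63 to -4.29 (adjusted p = 4.16e-07). The pattern counts could not be made from the 6 arrays of CAF CM and IFNγ and were made without the IL4 arrays instead, and a fit of the 4 CAF CM arrays as 1 group gives no value for a single medium.

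With 2 arrays per condition, 67.2% of the 67 simulated probe sets with a change of 1 log2 unit between CAF CM and IFNγ were found. No change was simulated between IFNγ and baseline or between the 2 media, so the share does not describe those comparisons.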
